A study of Mus musculus with 12 samples.

Results

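The 6 genes described here encode the platelet-derived growth factors (PDGF) and their receptors, which are the ligand genes Pdgfa, Pdgfb, Pdgfc and Pdgfd and the receptor genes Pdgfra and Pdgfrb. They were chosen by name, not by their signals, and comprised every probe of the array whose accession belonged to 1 of these genes. This gave 8 probes of 39429, and 6 genes of the 20144 genes that could be matched to the array. Pdgfa and Pdgfb each had 2 probes and the other genes had 1, of which the Pdgfra probe was printed as 10 spots per array.

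Gene expression was measured in mouse Dunn osteosarcoma cells and in LM8 cells, a derivative of Dunn cells that was selected in vivo for a higher metastatic activity. Dunn cells were analyzed at passages 25 (early) and 86 (late), and LM8 cells at passages 24 (early) and 91 (late), with 3 arrays for each of the 4 groups. All cells were grown in the same medium with fetal calf serum, without treatment, and both lines are labelled osteoblastic. Early and late cells had been frozen and were thawed and grown under the same conditions before RNA was extracted. Late cells derived from the early cells of their line by serial culture, so that each line is 1 culture history and passage cannot be told apart from events in that history. Of 10 osteoblast lineage markers tested, 10 were well above background on all arrays in which they were measured in each of the 4 groups, and Bglap was not matched. Their summed linear signal, relative to the 75th percentile of the array, was 138 to 303 and 122 to 223 in early and late Dunn cells, and 88.2 to 255 and 230 to 265 in early and late LM8 cells. Spots flagged as outliers are missing from these sums. Col1a2, the brightest marker, counted on 1 early Dunn, 2 late Dunn, 2 early LM8 and 3 late LM8 arrays. The sums are therefore not comparable between groups.

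PDGFs are dimeric ligands that bind to the tyrosine kinase receptors alpha (Pdgfra) and beta (Pdgfrb) and stimulate growth and migration of mesenchymal cells, including bone-forming cells. PDGF-A binds to the alpha receptor, PDGF-B to both receptors, and PDGF-D mainly to the beta receptor. PDGF-C and PDGF-D are secreted as latent factors and become active only after a protease has removed their CUB domain.

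The genomic DNA just upstream of the start site is shown for 2 ligand genes that were well above background in both lines but that behaved differently between them, Pdgfa and Pdgfc. The sequences are from RefSeq (GRCm38.p6), cover the 250 bases before the start on the strand of the gene, and have GC boxes (GGGCGG or its reverse complement CCGCCC) in capitals.

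Pdgfa, chr5:138994945-138995194, minus strand: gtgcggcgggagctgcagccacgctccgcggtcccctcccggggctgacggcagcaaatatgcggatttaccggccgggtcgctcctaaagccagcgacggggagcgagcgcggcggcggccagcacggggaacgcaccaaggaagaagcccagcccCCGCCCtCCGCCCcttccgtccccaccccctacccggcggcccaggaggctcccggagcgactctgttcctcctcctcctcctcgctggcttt

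Pdgfc, chr3:81036166-81036415, plus strand: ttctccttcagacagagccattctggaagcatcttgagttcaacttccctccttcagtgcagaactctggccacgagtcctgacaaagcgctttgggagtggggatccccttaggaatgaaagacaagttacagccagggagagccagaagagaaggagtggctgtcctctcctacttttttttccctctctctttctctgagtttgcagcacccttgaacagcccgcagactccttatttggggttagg

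The Pdgfa window held 2 GC boxes and 28 CpG dinucleotides at a G+C content of 72.4%. A second Pdgfa start in the same annotation had 1 GC box and 19 CpG. The Pdgfc window had no GC box, 3 CpG and 50.8% G+C. The windows of Pdgfra and Pdgfd also had no GC box in these letters, and Pdgfb and Pdgfrb had no entry. Of 32851 such windows in the annotation, 32.7% held a GC box on either strand. These counts describe the sequence and were not tested against the signals.

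Signals below are log2 values relative to the 75th percentile of the array they were measured on, so that 0 stands for the 75th percentile. This percentile corresponded to processed signals of 287 to 961 on the Dunn arrays and of 893 to 1903 on the LM8 arrays, and between 39.1 and 59.7% of probes per array were well above background. The first early Dunn array had a local background of 87, compared with 22.5 to 34 on the other arrays, and the first late Dunn array correlated with its 2 replicates at r = 0.919 and 0.923, compared with at least 0.961 for all other replicate pairs. The median difference of all genes was not 0 under this scaling. It was -0.76 between early LM8 and early Dunn cells, and -0.34 when only genes well above background were counted, and the values for late cells were -0.55 and -0.18. In the deposited values without scaling, some of the signs turned, as given beside each gene. The median difference of all probes in those values was 0.61 in early cells, 0.20 in late cells and 0.39 with passages pooled. For members well above background, scaled line differences in early and in late cells are therefore also given relative to 1 or both scaled medians. Each of the 3 slides carried 1 array of each group at the same position, so that position on the slide and group cannot be told apart.

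**Figure D1:**
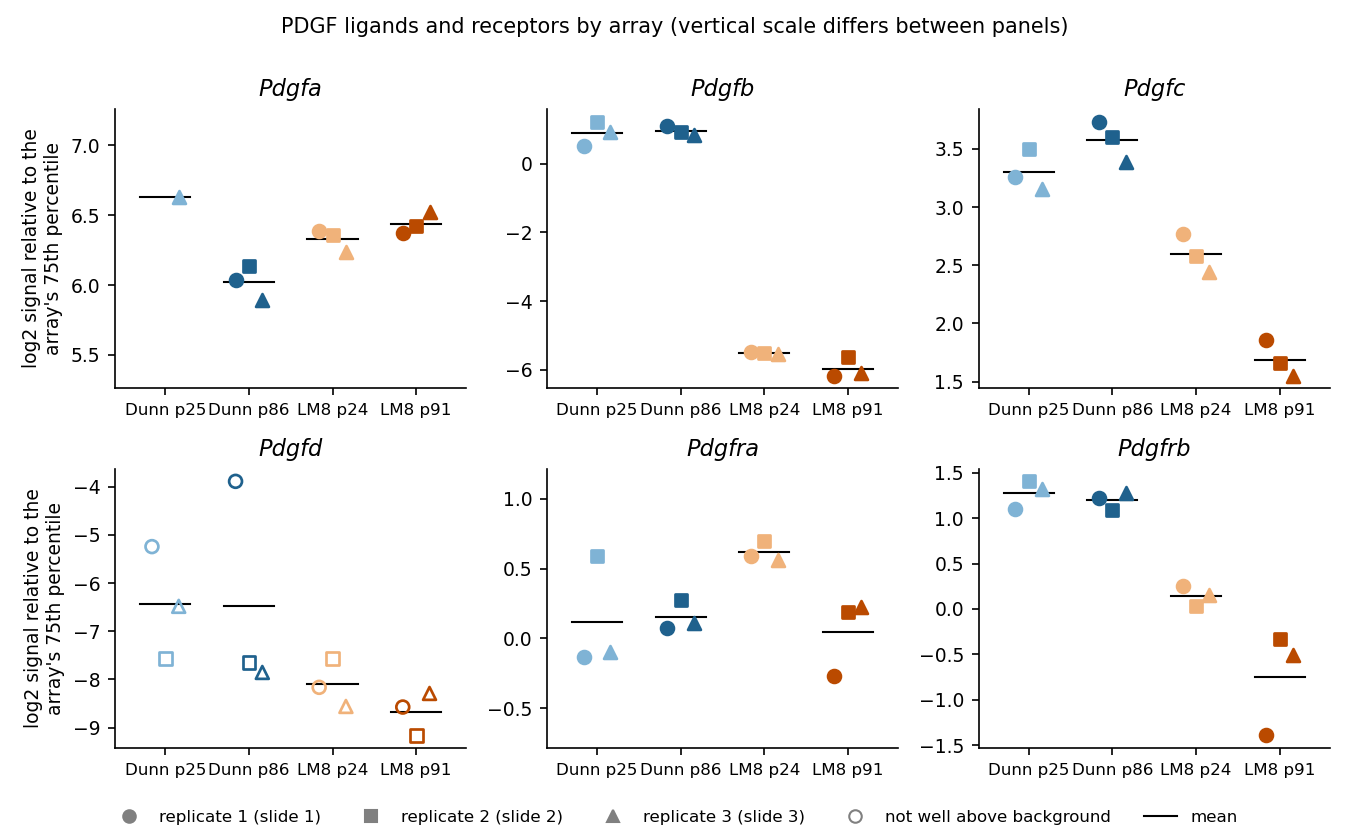
Scaled log2 signal of the probe used for each of the 6 genes (vertical axis, different for each panel) on the 12 arrays, grouped by line and passage (p). Points are arrays, bars are group means, and open symbols were not well above background; Pdgfb was about 1 in Dunn cells and below -5 in LM8 cells, and Pdgfd was open on all arrays.

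Pdgfb encodes the B chain and was the member that differed most between the lines. Its scaled log2 signal was 0.50, 1.23 and 0.91 in early Dunn cells and 1.09, 0.91 and 0.82 in late Dunn cells. In early LM8 cells it was -5.48, -5.52 and -5.55, and in late LM8 cells it was -6.17, -5.64 and -6.10. The highest LM8 array was thus far below the lowest Dunn array, although the probe was still well above background on all LM8 arrays. Unscaled signals were 540 to 1810 in Dunn cells and 16.2 to 38.2 in LM8 cells. The lowest scaled signals well above background on the LM8 arrays were -7.21 to -6.30. Folds from this probe thus rest on LM8 signals near that limit.

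Pdgfb was 84.5-fold lower in early LM8 than in early Dunn cells, a log2 difference of -6.40 (SE 0.32; limma, adjusted p = 0.00049). In late passages it was 121-fold lower, with a log2 difference of -6.91 (SE 0.25; limma, adjusted p = 0.000632). On the 3 slides, which each carried 1 array of each group, these differences ranged from -6.75 to -5.99 for early cells and from -7.26 to -6.55 for late cells. Relative to the median of all genes they were -5.64 and -6.36. As the cells were measured in bulk, fewer cells with the transcript and less transcript per cell cannot be told apart. Among the genes well above background, Pdgfb ranked 39th from the lowest of 12005 genes in early cells and 34th of 12517 in late cells.

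The cross-passage comparisons gave similar sizes for Pdgfb. Late LM8 differed from early Dunn cells by -6.85 (SE 0.33; limma, adjusted p = 0.000276), and early LM8 from late Dunn cells by -6.46 (SE 0.21; limma, adjusted p = 0.00114). With the slide, which is the replicate number, as a block, the second of these did not pass (adjusted p = 0.0598). In that setting 0 probes of the array were called higher and 0 lower, and the unadjusted p of Pdgfb was 3.33e-05 (limma). The 4 comparisons share arrays and are not independent.

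The second Pdgfb probe (A_55_P1974441) was dimmer. It was well above background on 2 of 3 early Dunn and on 3 of 3 late Dunn arrays, but on none of the 6 LM8 arrays. Its scaled log2 signals were -3.80, -3.34 and -3.26 in early Dunn and -2.28, -3.94 and -4.18 in late Dunn cells. Because the LM8 signals give only an upper limit, the difference is stated as a bound. By this probe Pdgfb was at least 8.26-fold lower in early LM8 (limma, adjusted p = 0.00931) and at least 10.5-fold lower in late LM8 cells (adjusted p = 0.0159). These p-values are from the fit to the signals as measured and do not test the bounds. The early bound is approximate, since the Dunn mean includes an array not well above background. Both probes thus had the same direction.

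Passage had a much smaller relation to Pdgfb than line. The difference between late and early Dunn cells was 0.06 (SE 0.33; adjusted p = 0.998), and that between late and early LM8 cells was -0.45 (SE 0.21; adjusted p = 0.297). The arrays of late LM8 cells were all below those of early LM8 cells, by 0.11 to 0.69 on the 3 slides.

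Pdgfc encodes a CUB domain ligand for the alpha receptor and was well above background on all arrays. Its scaled log2 signal was 3.26, 3.50 and 3.16 in early Dunn cells and 3.74, 3.60 and 3.39 in late Dunn cells. In LM8 cells it was 2.77, 2.58 and 2.44 in the early passage and 1.85, 1.66 and 1.55 in the late passage. The LM8 arrays were all below the Dunn arrays, and within LM8 the late arrays were all below the early ones.

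Pdgfc was 3.69-fold lower in late LM8 than in late Dunn cells, a log2 difference of -1.88 (SE 0.22; limma, adjusted p = 0.0158). The 3 slides gave -1.88, -1.94 and -1.83. Relative to the median of all genes this late difference was -1.335, and relative to the genes well above background it was -1.70. The adjusted p was 0.112 with the slide as a block, and it lay between 0.0591 and 0.129 when late LM8 array 1, 2 or 3 or late Dunn array 2 or 3 was left out, at differences of -1.98 to -1.82. In early passages the difference was -0.71 (SE 0.29; adjusted p = 0.113), which is close to the median of all genes, since relative to it the value was 0.05 (-0.37 relative to the genes well above background). In the deposited values without scaling, the early difference had the opposite sign, at 0.76 (adjusted p = 0.338), and the late one was -1.02 (adjusted p = 0.25). The median of all probes in those values was 0.61 in early and 0.20 in late cells.

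During long-term culture Pdgfc differed by -0.91 in LM8 cells (SE 0.19; limma, adjusted p = 0.0841). The values on the 3 slides were -0.91, -0.91 and -0.89. In Dunn cells the difference was 0.27 (SE 0.30; adjusted p = 0.83), with 0.48, 0.10 and 0.23 on the slides. The passage difference was thus negative on 3 of 3 slides in LM8 and positive on 3 of 3 slides in Dunn cells. The interaction of line and passage was -1.18 (SE 0.30) and did not pass over all probes (limma, adjusted p = 0.239). It passed when dim probes were left out before the adjustment (adjusted p = 0.0446), and so did the LM8 difference (adjusted p = 0.0217).

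**Figure D2:**
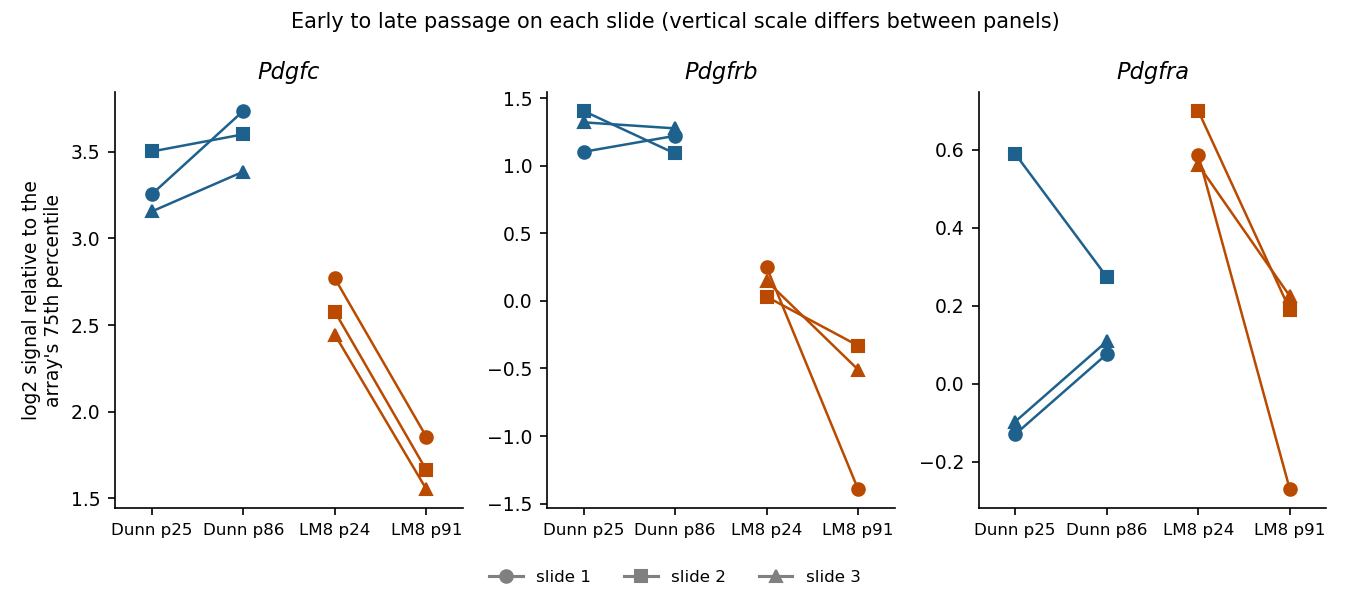
Scaled log2 signal (vertical axis, different for each panel) of Pdgfc, Pdgfrb and Pdgfra in early and late cells, with 1 line for each of the 3 slides and blue for Dunn and orange for LM8 cells. All 3 orange lines go down in each panel, and the blue lines go up only for Pdgfc on all slides.

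Pdgfa encodes the A chain, and its probe had unscaled signals of 28436 to 163112 on the arrays that could be used. The early Dunn group rested on 1 array, since the spot was flagged as an outlier by the scanner software on the other 2. Its scaled log2 signal was 6.63 on that array and 6.04, 6.13 and 5.89 in late Dunn cells. It was 6.39, 6.36 and 6.24 in early LM8 cells and 6.37, 6.42 and 6.52 in late LM8 cells. No comparison was called. The comparisons with early Dunn cells rest on that 1 array and changed sign with the processing, since early LM8 versus early Dunn cells gave -0.30 here (SE 0.46; limma, adjusted p = 0.632) but 0.42 with the outlier spots kept.

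The late LM8 arrays were all above the late Dunn arrays for Pdgfa, by 0.42 (SE 0.20; limma, adjusted p = 0.279), and late and early LM8 cells differed by 0.11 (SE 0.17; adjusted p = 0.73). Relative to the median of all genes the late line difference was 0.97, and 0.60 relative to the genes well above background. For early cells, with 1 Dunn array, these values were 0.45 and 0.04. The second Pdgfa probe (A_55_P2125588) had lost 1 early Dunn and 1 late LM8 array to outlier flags. It gave 0.13 for late LM8 versus late Dunn cells (SE 0.24; adjusted p = 0.7) and 0.04 for early cells (SE 0.37; adjusted p = 0.937). In the deposited values without scaling, Pdgfa was 1.26 higher in LM8 cells with passages pooled (adjusted p = 0.0257), compared with 0.21 after scaling (adjusted p = 0.406).

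Pdgfd encodes the second CUB domain ligand. Its probe was not well above background on any of the 12 arrays, with unscaled signals of 2.96 to 51.1, so that no level or fold is given. A pooled test of LM8 versus Dunn cells did call it (adjusted p = 0.0319), although neither group was well above background.

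Pdgfrb encodes the beta receptor. Its scaled log2 signal was 1.10, 1.41 and 1.32 in early Dunn cells and 1.22, 1.09 and 1.28 in late Dunn cells. It was 0.25, 0.03 and 0.15 in early LM8 cells and -1.39, -0.33 and -0.51 in late LM8 cells. No LM8 array reached the lowest Dunn array, and the first late LM8 array was lower than the other two of its group.

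Pdgfrb was 2.19-fold lower in early LM8 than in early Dunn cells (log2 -1.13, SE 0.29; limma, adjusted p = 0.0776) and 3.84-fold lower in late LM8 than in late Dunn cells (log2 -1.94, SE 0.34; adjusted p = 0.0544). Neither difference passed in the analysis reported here, but both passed under several alternatives. The early one passed with quantile normalization (adjusted p = 0.0193), the floor on dim signals (0.0469), the filter on dim probes (0.014), 1 fit over 12 arrays (0.0329) and the methods' t-test (0.034). The late one passed with quantile normalization (adjusted p = 0.0251), normexp (0.0145), the filter (0.0101) and 1 fit over 12 arrays (0.00252). Relative to the median of all genes the early and late differences were -0.38 and -1.39. Relative to the genes well above background they were -0.79 and -1.76. The late difference also passed when late Dunn array 1 (adjusted p = 0.0291) or slide 1 (adjusted p = 0.0243, -1.60) was left out, and the early one when early Dunn array 2 was (adjusted p = 0.0372). In the deposited values without scaling the early difference had the opposite sign, at 0.34, and the late one was -1.07. There the median of all probes was 0.61 in early and 0.20 in late cells. With the passages pooled, Pdgfrb was 2.90-fold lower in LM8 cells (log2 -1.54, SE 0.27; limma, adjusted p = 0.00273). In that comparison 43.6% of all genes were called, 37.9% of them all lower. The deposited values without scaling gave a pooled difference of -0.37 (limma, adjusted p = 0.502), beside a median of all probes of 0.39.

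Late LM8 cells had less Pdgfrb signal than early LM8 cells on all 3 slides, at -1.64, -0.36 and -0.66. The mean difference of -0.89 was not called (SE 0.31; adjusted p = 0.271). Late and early Dunn cells differed by -0.08 (SE 0.28; adjusted p = 0.989), and the interaction was -0.81 (SE 0.40; adjusted p = 0.989).

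Pdgfra encodes the alpha receptor. Its mean over the 10 spots was -0.13, 0.59 and -0.10 in early Dunn, 0.08, 0.27 and 0.11 in late Dunn, 0.59, 0.70 and 0.56 in early LM8 and -0.27, 0.19 and 0.22 in late LM8 cells. The groups overlapped between the lines in both passages, and no comparison was called. Early LM8 and early Dunn cells differed by 0.50 (SE 0.33; limma, adjusted p = 0.272), and late LM8 and late Dunn cells by -0.11 (SE 0.24; adjusted p = 0.758). Relative to the median of all genes these differences were 1.25 and 0.445. Relative to the genes well above background they were 0.84 and 0.08. Within LM8 the late arrays were all below the early ones by 0.34 to 0.86, and the mean difference was -0.57 (SE 0.21; adjusted p = 0.291).

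The 10 copies of the Pdgfra probe did not give the same signal on the Dunn arrays. Their standard deviation within an array was 0.59 to 1.46 on the log2 scale on the Dunn arrays and 0.05 to 0.39 on the LM8 arrays. For the 210 probes printed 10 times and well above background on all arrays, the median was 0.12 to 0.38 on the Dunn arrays and 0.06 to 0.13 on the LM8 arrays. On the first early Dunn array, 6 spots in the upper rows of the array had 472 to 982 units, and the 4 spots from row 508 on had 86.7 to 288. This split at row 508 was chosen after the values were seen, and the medians of the same sets were 720.5 and 90.4 on that array. On the LM8 arrays the gap was widest on the first early array, with a median of 1646 for the upper and 1107 for the lower set, and on the third late array the medians were 1629 and 1553. With the median in place of the mean of the spots, early LM8 and early Dunn cells differed by 0.09, and the pooled difference of 0.20 turned to -0.14. In the deposited values without scaling the pooled difference was 1.36 (adjusted p = 0.0257). The cause of the spread was not tested.

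**Figure D3:**
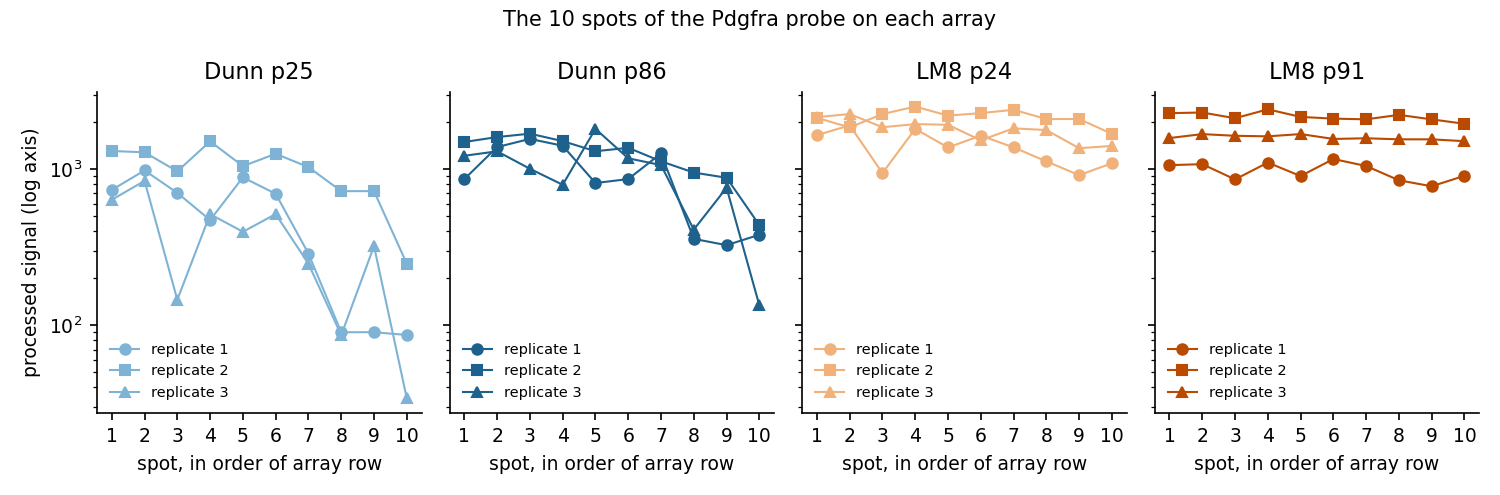
Processed signal (log axis) of the 10 spots of the Pdgfra probe, ordered by the row of the array, for the 3 arrays of each group. Spots toward the right are lower on the Dunn arrays, down to 34.1 on the third early array. They are lower to a smaller extent on the first early LM8 array. There the last 4 spots range from 915 to 1379 and the first 6 from 944 to 1909.

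In early passages, 1 of 6 members was called, Pdgfb, compared with 4.55% of 20130 genes. In late passages 2 of 6 were called, Pdgfb and Pdgfc, compared with 3.83% of 20143 genes. All of these calls were lower in LM8 cells, and lower calls made up 3.22% and 2.59% of all genes. Late LM8 versus early Dunn cells gave 4 of 6 members but also 47.2% of genes, and early LM8 versus late Dunn cells gave Pdgfb alone, beside 2.92% of genes. Pdgfb alone was called in all 4 line comparisons of single passages, as were 1.51% of genes. By the rule of over 2-fold at an unadjusted p under 0.05, 3 of 6 members (Pdgfb, Pdgfrb and the undetected Pdgfd) were called in early cells, where 36.7% of all genes were, and 3 of 6 (Pdgfb, Pdgfc and Pdgfrb) in late cells, where 13.3% were. With passages pooled 4 of 6 were called, but so were 43.6% of all genes (37.9% lower), and 1 of the 4 was the undetected Pdgfd.

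No member was called in either passage comparison by limma at an adjusted p under 0.05. The background was 1 gene (0.00497%) in Dunn cells, and 2.82% of 20144 genes in LM8 cells. By the rule of over 2-fold at an unadjusted p under 0.05, no member was called either, with a background of 4.86% and 7.29%. The interaction of line and passage called no member, and 0.606% of all genes, and the 2-fold rule called Pdgfc and 5.3% of all genes. The median difference of the 5 members well above background was -0.57 in LM8 cells between late and early passage, compared with -0.05 for all genes well above background, and 0.03 in Dunn cells, compared with -0.22.

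**Figure D4:**
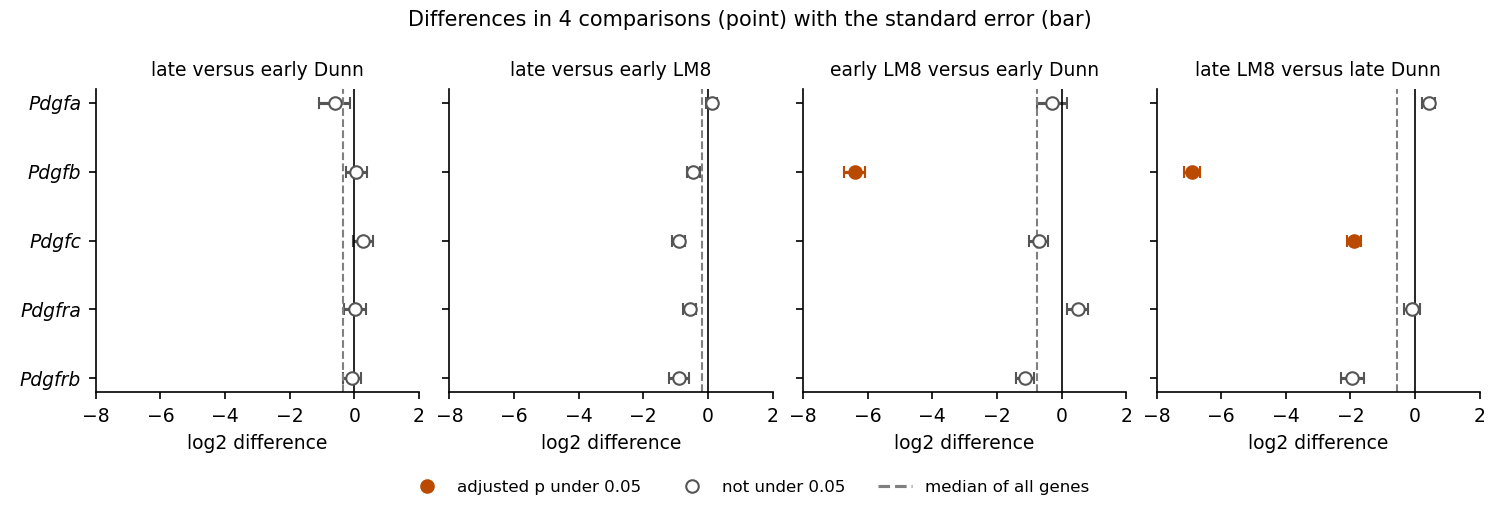
Log2 difference (horizontal axis) with its standard error for the 5 genes well above background in the comparisons of passages and of lines. Filled points passed an adjusted p under 0.05, which were Pdgfb in both line comparisons and Pdgfc in the late one, and the dashed line is the median of all genes.

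Genes that act with the PDGFs were examined in lists of known partners, for which 4.55% and 3.83% of all genes called in early and late cells are the background, and 2.82% with passage in LM8 cells. Of 9 proteins that process or bind the ligands, none was called in the early or late line comparison or with passage. Furin, a protease that cleaves PDGF precursors, was chosen after its values were seen, and its log2 difference was 1.58 in early (SE 0.55; adjusted p = 0.0795) and 1.56 in late cells (SE 0.44; adjusted p = 0.155). Of 21 adaptors and effectors of the receptors, none was called in these comparisons, and the median of those well above background was -0.48 in early and -0.28 in late cells, compared with -0.34 and -0.18 for all such genes.

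Among 15 negative regulators, 1 was called, Socs3, a feedback inhibitor of cytokine signalling, which was lower in late LM8 than in late Dunn cells, with mean scaled log2 signals of 0.998 and 2.998 (adjusted p = 0.0154). Among 15 growth factor response genes, the chemokine gene Ccl2 was at least 11.1-fold lower in early LM8 than in early Dunn cells (adjusted p = 0.00369), and it was not well above background on any LM8 array. In late cells the transcription factor genes Myc (-1.46, adjusted p = 0.0257) and Srf (-1.46, adjusted p = 0.0369) were lower in LM8. With passages pooled, 5 of the 15 were called lower and 2 higher in LM8 cells, beside 43.6% of all genes called. The 2 higher ones were Egr1 (2.48, limma, adjusted p = 0.0211) and Fos (0.97, adjusted p = 0.0316). Neither was called in early or late cells alone, and both were well above background on only 1 early Dunn array. Fosl1, a subunit of AP-1, fell by 2.12 from early to late LM8 cells (SE 0.19; adjusted p = 0.00273) and differed by -1.64 in Dunn cells (SE 0.36; adjusted p = 0.534).

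Of 7 genes of the related receptors of the same class and their ligands, 2 were lower in early and 3 in late LM8 cells, a share of 28.6 and 42.9%. Il34, a ligand of the Csf1 receptor, was -1.29 and -1.75 in early and late Dunn cells and -4.90 and -6.26 in LM8 cells on average. Its differences were -3.61 (SE 0.36; adjusted p = 0.00454) in early and -4.50 (SE 0.33; adjusted p = 0.00373) in late cells, and it fell by 1.35 with passage in LM8 cells (adjusted p = 0.0173). With passage in Dunn cells Il34 differed by -0.46 (limma, adjusted p = 0.798). The Kit ligand gene Kitl was not well above background on any LM8 array and was above it on 2 of 3 Dunn arrays in each passage. It was at least 6.41-fold lower in early (adjusted p = 0.00203) and at least 6.67-fold lower in late LM8 cells (adjusted p = 0.0131). Both bounds are approximate, since each Dunn mean includes an array not well above background. Kit itself was called in late cells but was well above background in neither of those groups, so no fold is given.

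Pdgfra lies beside Kit and Kdr on chromosome 5, and of 10 genes listed from this neighbourhood Lnx1 was, beside Kit, the gene called. Its log2 difference was -1.68 in early (adjusted p = 0.0411) and -2.51 in late passages (adjusted p = 0.0107), and it fell by 1.50 from early to late LM8 cells (adjusted p = 0.0412). With passage in Dunn cells Lnx1 differed by -0.66 (limma, adjusted p = 0.782).

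Markers of other cell types that carry PDGF receptors in tissue were also compared. Of 8 pericyte and smooth muscle markers, Acta2, the smooth muscle actin gene, was called lower in early LM8 (-3.19, adjusted p = 0.03) and late LM8 cells (-5.56, adjusted p = 0.00281). Acta2 fell by 4.02 with passage in LM8 cells (adjusted p = 0.0048). In Dunn cells it differed by -1.64 with passage (limma, adjusted p = 0.661), and the interaction was -2.38 (adjusted p = 0.25). The early Dunn mean of Acta2, 7.44, rested on 2 arrays, since the spot was flagged as an outlier on the other, and the summed signal below lacks it there. Cspg4 and Mcam were well above background on 3 of 3 arrays in each group, and Rgs5, Abcc9 and Kcnj8 on no array. Myh11 was above it on 1 late Dunn array only. Des was above it on 1 early Dunn array and on 3 of 3 arrays of each other group. The line difference of Des was 0.41 in early (limma, adjusted p = 0.517) and -0.70 in late cells (adjusted p = 0.314). With passage Des differed by 0.79 in LM8 cells (adjusted p = 0.314) and by 1.91 in Dunn cells (adjusted p = 0.627). Cspg4 had mean scaled log2 signals of 3.49 in early Dunn, 2.82 in late Dunn, 2.18 in early LM8 and 1.87 in late LM8 cells. It was not called in early or late cells alone but was lower in LM8 cells with passages pooled (-1.13, adjusted p = 0.00906). In that pooled comparison 37.9% of all genes were called lower. Mcam had a pooled difference of -0.45 (adjusted p = 0.0807). The summed linear signal of the list was 21.2 to 213 in early and 62.8 to 89.8 in late Dunn cells, and 24 to 42 in early and 12 to 15.2 in late LM8 cells. The summed signal of 5 macrophage and blood markers did not exceed 0.456 on any array and that of 5 endothelial markers lay between 3.47 and 12.8. The sum of 5 epithelial markers was at most 0.6. The part of these marker signals in the results for the PDGF genes was not tested.

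The genes whose signal across the arrays was most like that of a member, among 8205 genes well above background on all arrays, are given as a description. For Pdgfb they were Bmyc (r = 0.997), Abcc4 (r = 0.991) and Pparg (r = 0.99), over 12 arrays that fall into 2 separate sets by line. For Pdgfc they were Arap3 (0.978), Inhbb (0.97) and Fam171a1 (0.964), and for Pdgfrb Col6a5 (0.964), Gprc5c (0.959) and Ssc5d (0.957). The best values for Pdgfra were lower, at 0.867 for Cep120, 0.85 for Man2b1 and 0.846 for Parp9. For Pdgfa, over 10 arrays, they were Fmnl3 (0.942), Rassf2 (0.925) and Epn2 (0.924).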

How the data were processed

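Total RNA of 12 samples was hybridized to 1-colour Agilent mouse arrays. The authors scanned the arrays and deposited Agilent Feature Extraction (version 10.7.3) output with the processed, median and background intensity of each spot, and a table of intensity values without further scaling, which lay within 1% of the processed intensity for 100% of its values. Log2 of the deposited processed intensity minus the 75th percentile of each array was used here. Control and outlier-flagged spots were left out and the spots of a probe were averaged, giving 39429 probes, of which 26581 (67.4%) were matched by accession to 20144 genes of RefSeq.

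Groups were compared with limma 3.58.1 (R 4.3.3; lmFit and eBayes, 2 groups without a block) with Benjamini-Hochberg adjustment over all probes. A gene was called at an adjusted p under 0.05 on its probe with the highest mean log2 signal. The script was tested on simulated data. Probes not well above background in a group give bounds only. A p-value beside a bound is from the fit to the signals as measured and does not test the bound. The number of arrays, 3 per group, limits the precision, and p-values measure the spread between these samples, which may be technical. Genes named from lists as called are at most 5 per list and comparison, by size of change. Other list genes were named outside this rule. Among them, Furin, Egr1, Fos, Cspg4, Mcam, Des, Myh11, Rgs5, Abcc9, Kcnj8 and Col1a2 were not called in early or late cells alone. The same held for Vwf, Kdr, Cdh5, Pecam1 and Tek. The members and lists were chosen with earlier results of these data known. Alternatives were other scalings, normexp on the median and background intensity (a mean intensity was not used here) with an offset of 50, a floor and a filter on dim probes, the mean of a gene's probes, 1 fit over 12 arrays, the slide as a block, the methods' t-test with its own call rule, and leaving out each array. The replicate number is the slide in the file headers. Of 18 pairs of same-numbered arrays, 12 correlated above 0.1 in their deviations from the group means (range -0.237 to 0.678).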

Additional observations from a re-analysis of the deposited data

Results flagged for a closer look

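The passage difference of Pdgfc had opposite signs in the lines on all slides. It was 0.48, 0.10 and 0.23 in Dunn cells and -0.91, -0.91 and -0.89 in LM8 cells. The interaction, LM8 passage difference minus Dunn passage difference, was -1.18 (limma, adjusted p = 0.239, and 0.0446 with dim probes left out).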

How the results depend on the processing

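Pdgfb was lower in LM8 than in Dunn cells in each of the line comparisons under every setting run. It passed in each except early LM8 versus late Dunn cells with the replicate block, where 0 probes of the array passed. Of the values for single genes under the alternatives, 835 kept direction and side of the threshold, 26 passed newly, 40 no longer passed and 59 changed sign, of which 3 were called in either analysis and 56 in neither. Pdgfa had 21 of the sign changes, Pdgfra 16, Pdgfd 13, Pdgfrb 4, Pdgfb 3 and Pdgfc 2. In early LM8 versus early Dunn cells, 1 member was called in the analysis reported, and 2 with quantile normalization, the filter on dim probes, 1 fit over 12 arrays or the methods' t-test. With the floor or by the 2-fold rule at an unadjusted p, 3 members were called, of which 1 was the undetected Pdgfd. Under the floor, the Pdgfd values of these 2 groups were the floors of the arrays and give no level of Pdgfd. In late cells 2 were called, 1 in the deposited table, and 3 (with Pdgfrb) with quantile normalization, normexp, the filter, 1 fit over 12 arrays, the 2-fold rule or without slide 1. In LM8 passages, 0 were called and 1 (Pdgfc) with quantile normalization, the floor or the filter. For the interaction, 0 were called and 1 (Pdgfc) with the filter or the 2-fold rule. In all 4 line comparisons 1 was called, and 2 with quantile normalization, the filter or the 2-fold rule.

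The sign changes were as follows. With the deposited table without scaling, late LM8 versus early Dunn cells gave 2.15 for Pdgfa, 0.22 for Pdgfc and 1.76 for Pdgfra, early LM8 versus early Dunn cells gave 1.67 for Pdgfa, 0.76 for Pdgfc and 0.34 for Pdgfrb, and late LM8 versus late Dunn cells gave 0.76 for Pdgfra. In that table late versus early Dunn cells gave 0.86 for Pdgfa, 0.93 for Pdgfd and 0.88 for Pdgfrb, and the interaction of Pdgfa was -0.38. The median difference of all probes there was 0.81 in late LM8 versus early Dunn and 0.63 in late versus early Dunn cells. It was -0.42 for the interaction. With quantile normalization Pdgfa was 0.22 in early LM8 versus early Dunn, 0.20 in late LM8 versus early Dunn, 0.11 in late versus early Dunn and -0.0228 in late versus early LM8 cells, with an interaction of -0.13, and Pdgfd was 0.58 with passage in Dunn and 0.0223 in LM8 cells. With normexp the same values of Pdgfa were 0.49, 0.49, 0.19, -4.7e-05 and -0.19, the interaction of Pdgfd was 0.80, and Pdgfra was -0.13 with passage in Dunn cells. With the median of bright probes as the scale, Pdgfa was 0.16 and 0.30 in early and late LM8 versus early Dunn cells, Pdgfra 0.25 in late LM8 versus early Dunn and 0.0152 versus late Dunn cells, and with passage in Dunn cells Pdgfd was 0.16 and Pdgfrb 0.12. With the mean of its probes, Pdgfa was 0.0339 and 0.0881 in early and late LM8 versus early Dunn cells. With the floor the interaction of Pdgfd was 0.41. With outlier spots kept, Pdgfa was 0.42 and 0.55 in early and late LM8 versus early Dunn cells, Pdgfra was 0.14 in the latter, and with passage in Dunn cells Pdgfa was 0.063, Pdgfd 0.12 and Pdgfrb 0.0771. With the median of the spots Pdgfra was -0.14 with passages pooled and -0.15 with passage in Dunn cells. Without slide 1 the passage difference in Dunn cells was -0.20 for Pdgfb and -0.0548 for Pdgfra, Pdgfra was 0.0159 in late LM8 versus late Dunn cells, and the interaction of Pdgfd was 0.0719.

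Leaving out each array gave 1 to 3 called in early cells (3, with the undetected Pdgfd, without early Dunn array 2) and 1 to 3 in late cells. The passage difference in Dunn cells then ranged from -0.13 to 0.24 for Pdgfb, from -1.33 to 0.66 for Pdgfd and from -0.0933 to 0.27 for Pdgfra. Pdgfra ranged from -0.20 to 0.16 in late LM8 versus early Dunn and from -0.19 to 0.0544 versus late Dunn cells, and the interaction of Pdgfd from -1.24 to 0.75.

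With the replicate number, which is the slide, as a block, 1 member was called in late cells, 0 in early LM8 versus late Dunn cells (Pdgfb, adjusted p = 0.0598) and therefore 0 in all 4 line comparisons. For early LM8 versus late Dunn cells, 0 probes of the whole array were called with this block. The same-numbered arrays did not all correlate. Leaving out slide 1, taking the median of the spots and keeping outlier spots were chosen after seeing the data. The cause of these differences was not tested. Signal over background limits Pdgfd, which had no measured level.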

Other observations

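Pdgfrl, a receptor-like gene outside the family described above, was chosen after its values were seen. Early Dunn arrays had scaled log2 signals of 0.01, 0.16 and 0.31, and late Dunn arrays of 0.80, 0.70 and 0.62. Early LM8 arrays had -2.58, -2.83 and -2.24, and late LM8 arrays -0.86, -1.32 and -1.72. All LM8 arrays were below all Dunn arrays. It was 6.54-fold lower in early LM8 than early Dunn cells (limma, adjusted p = 0.00742) and 4.01-fold lower in late cells (adjusted p = 0.0298). Late LM8 cells were above early LM8 cells on 3 of 3 slides, by 1.25 on average (SE 0.28; adjusted p = 0.105), and late above early Dunn cells by 0.54 (SE 0.28; adjusted p = 0.782).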
